A study of Mus musculus with 2 samples.

Results

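The AP-1 and immediate-early transcription factors were compared between B16F10 melanoma cells expressing NRF3 and B16F10 cells expressing GFP. The group comprised 10 genes taken by symbol, namely the FOS family genes Fos, Fosb, Fosl1 and Fosl2, the JUN family genes Jun, Junb and Jund, and Atf3, Egr1 and Ier2. These are 10 of the 19505 genes with a named probe set, and each had 1 probe set. B16F10 is a mouse melanoma line that makes melanin. The NRF3 group carried an expression plasmid for NRF3 and the GFP group one for GFP, each introduced with a puromycin resistance vector and followed by puromycin selection. Both groups then received forskolin, an activator of adenylate cyclase, for 5 days, so forskolin was common to the 2 arrays. There was 1 array per group, so every difference describes these 2 RNA samples, without error or p-value. The labels give neither the promoter of the plasmids, nor the species of the NRF3 sequence, nor whether the selected cells were 1 clone or a pool.

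AP-1 is a dimer of basic leucine zipper (bZIP) proteins. JUN proteins can pair with each other, whereas FOS proteins need a JUN partner, and ATF3 pairs with JUN proteins or with other members of the ATF and CREB family. Fos, Egr1 and Ier2 are immediate-early genes, transcribed within minutes of growth factor, stress or cAMP signals without new protein synthesis and soon silent again. MAP kinases, serum response factor and CREB drive that early phase, and FOSL1 and FOSL2 follow later and last longer. NRF3 is itself a bZIP factor of the cap'n'collar (CNC) family. It pairs with small MAF proteins on antioxidant elements, whose core resembles the AP-1 site.

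Values are the deposited log2 values, made by the robust multi-array average (RMA), and a fold is a fold on that scale. The scale reaches 19.7 on the NRF3 array and 19.8 on the GFP array, with 279 and 288 rows above 16, more than the log2 of any 16-bit scan could give. It is therefore not the plain log2 of brightness. No value of the 10 genes lay above 13.1. A gene was called detected when its brighter value reached 5.89, the median over all named probe sets, as 10162 genes did. This cut is a convention, not a measure of background. The 5222 control rows with neg in their names had medians of 6.37 on the NRF3 array and 6.12 on the GFP array, with upper quartiles of 7.85 and 7.52. Nfe2l3, which encodes NRF3, had log2 values of 10.1 on the NRF3 array and 6.04 on the GFP array, and the GFP value was dimmer than the middle of those control rows. All 10 pigment cell markers checked, among them Tyr, Tyrp1, Dct, Pmel and Mitf, were detected. None of the 7 leukocyte, 8 fibroblast and endothelial and 6 epithelial markers with a named probe set was, with no value above 5.67. Expression per cell and numbers of cells of a type cannot be told apart in bulk RNA.

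Promoter windows from RefSeq (GRCm38.p6), running from 250 bases before to 50 bases after the gene's start, were matched by symbol for 7 of the 10 genes. They are Atf3, Jun, Fosl2, Fosb, Jund, Junb and Fos. Those of Atf3, Fosl2 and Junb are printed here because these genes differed by at least 1.5-fold, Atf3 toward lower and the others toward higher values in NRF3 cells, although the Junb signal cannot be told from background. Capitals mark the short cAMP response element, the 5 bases TGACG that CREB and ATF proteins contact, or its reverse complement CGTCA.
Atf3, chr1:191183284-191183583, minus strand: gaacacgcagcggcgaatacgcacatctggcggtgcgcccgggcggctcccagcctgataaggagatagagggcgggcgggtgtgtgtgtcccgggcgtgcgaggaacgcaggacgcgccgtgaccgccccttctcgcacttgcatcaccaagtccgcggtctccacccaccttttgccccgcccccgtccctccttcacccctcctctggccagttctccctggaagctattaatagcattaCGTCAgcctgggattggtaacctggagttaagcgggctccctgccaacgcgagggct
Fosl2, chr5:32136222-32136521, plus strand: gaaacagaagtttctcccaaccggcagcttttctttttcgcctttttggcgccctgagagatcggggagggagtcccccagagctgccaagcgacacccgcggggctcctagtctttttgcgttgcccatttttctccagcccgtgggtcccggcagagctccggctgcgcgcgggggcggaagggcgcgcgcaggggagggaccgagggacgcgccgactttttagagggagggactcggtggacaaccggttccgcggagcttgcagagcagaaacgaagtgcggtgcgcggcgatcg
Junb, chr8:84978699-84978998, minus strand: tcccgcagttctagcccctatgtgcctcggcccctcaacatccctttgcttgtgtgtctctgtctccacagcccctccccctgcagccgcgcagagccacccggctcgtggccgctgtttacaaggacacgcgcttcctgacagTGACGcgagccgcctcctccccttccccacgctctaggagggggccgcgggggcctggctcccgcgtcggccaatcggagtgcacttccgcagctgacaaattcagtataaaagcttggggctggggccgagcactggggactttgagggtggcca

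Within these windows, both strands were searched for the short element TGACG, the full cAMP response element TGACGTCA that contains it, the AP-1 site TGAGTCA, the CNC antioxidant element TGACNNNGC, which can overlap an AP-1 site, the EGR site GCGTGGGCG and the CArG box of serum response factor. The short element was found in 4 of the 7 windows, those of Atf3, Fosb, Junb and Fos, and in 20.8% of all 32851 promoter windows in the table. It began at position -7 in Atf3, on the reverse strand, at -106 in Junb, at -60 in Fosb and at -129 and -66 in Fos, counted from the gene's start. Fosl2, Jun and Jund held none of the 6 motifs searched. The full cAMP response element, the AP-1 site, the antioxidant element, the EGR site and the CArG box were found in 0 of the 7 windows, and in 1.79%, 5.20%, 12.4%, 0.612% and 1.63% of all windows.

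**Figure D1:**
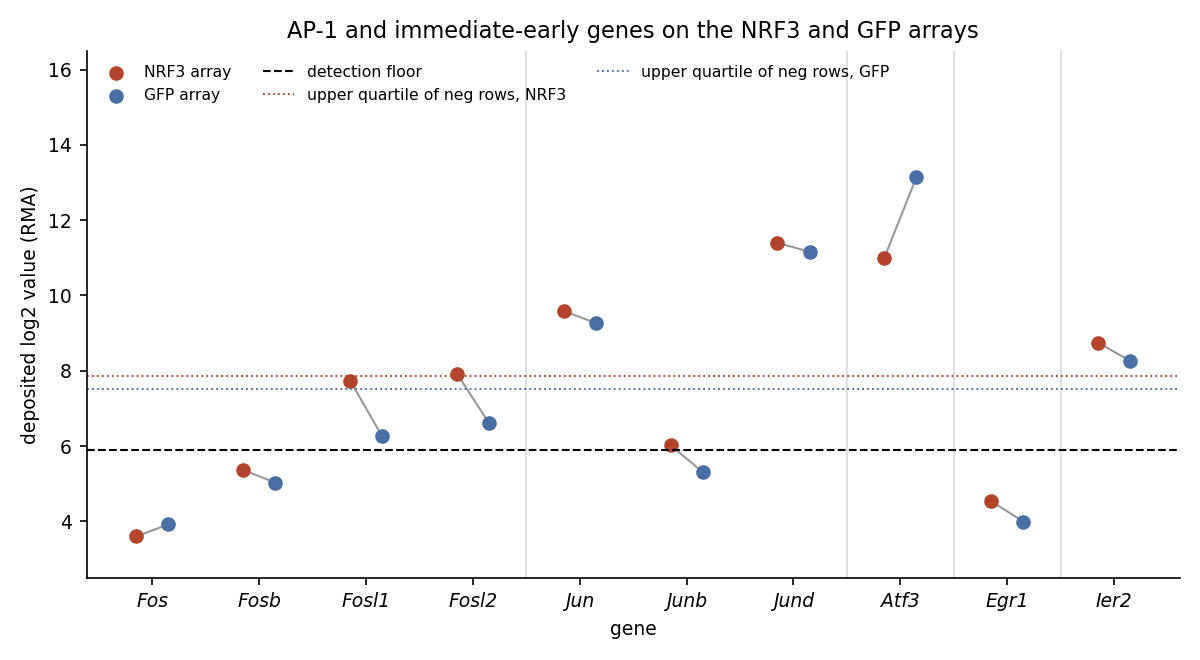
Deposited log2 value (vertical axis) of each gene (horizontal axis) on the NRF3 array (red, left) and the GFP array (blue, right), with the detection floor of 5.89 (dashed) and the upper quartiles of the control rows named neg (dotted). The line between the 2 points of a gene drops to the right where the value was higher on the NRF3 array. It climbs for Atf3 and Fos. Fos, Fosb and Egr1 were not detected and Junb lay in the range of background, so their slopes cannot be read. Heights of different genes are not comparable.

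Atf3 was lower in the NRF3 cells and Fosl1 and Fosl2 were higher, while the JUN genes differed less. Of the 10 genes, 7 were detected. At least 1.5-fold, a log2 difference of 0.585, was used as the rule of size, which is not a test. By it, 3 of the 7 detected genes were higher in NRF3 cells, against 17.0% of all detected genes, and 1 was lower, against 23.6%. The 3 higher genes include Junb, which reached the floor on the NRF3 array only and whose signal cannot be told from background. Junb also enters the median and the count above 0 that follow. At 2-fold the counts were 2 higher, against 6.75% of all detected genes, and 1 lower, against 11.0%. The median log2 difference, NRF3 minus GFP, was 0.49 over the 7 genes and -0.07 over all detected genes, whose quartiles were -0.55 and 0.39. Of the 7 differences, 6 were above 0, as were 45.8% of those of all detected genes. The split of all detected genes depended on scaling, with 1728 higher and 2396 lower as deposited and 2124 higher and 2018 lower after quantile normalization.

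Fosl1 and Fosl2 encode FRA-1 and FRA-2, the FOS proteins that lack the strong transactivation domain of FOS itself. Fosl1 (NCBI gene 14283, chromosome 19) had a log2 value of 7.74 on the NRF3 array and 6.26 on the GFP array. The difference of 1.48 is 2.79-fold and ranked 210 from the top among the 10162 detected genes. Fosl2 (NCBI gene 14284, chromosome 5) had 7.93 on the NRF3 array and 6.61 on the GFP array. Its difference of 1.31 is 2.49-fold and ranked 316 from the top. Both genes were dim. For Fosl1, 26.5% of the control rows named neg reached its value on the NRF3 array and 47.2% reached its value on the GFP array. For Fosl2 these shares were 23.9% and 40.5%. Both GFP values, and the NRF3 value of Fosl1, lay under the upper quartiles of these rows, and the part of background in these folds was not tested.

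The remaining FOS genes were not detected. Fos (chromosome 12), the founding immediate-early gene of the family, had log2 values of 3.60 on the NRF3 array and 3.92 on the GFP array. Fosb (chromosome 7), also a target of cAMP and growth factor signals, had 5.37 on the NRF3 array and 5.03 on the GFP array. Between 70.3% and 94.2% of the control rows reached these values, so no difference can be read for either gene. The labels do not say how long before RNA extraction the forskolin was last added.

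Among the JUN genes, Jun and Jund were well above most control rows and Junb was not. Jun (NCBI gene 16476, chromosome 4), the main activating partner in AP-1, had log2 values of 9.59 on the NRF3 array and 9.27 on the GFP array, a difference of 0.32. Jund (NCBI gene 16478, chromosome 8), the JUN protein present in resting cells, had 11.4 on the NRF3 array and 11.2 on the GFP array, a difference of 0.24. Both were within 1.5-fold. Junb (NCBI gene 16477, chromosome 8), which encodes a JUN protein with weaker activation than JUN, had 6.02 on the NRF3 array and 5.31 on the GFP array. Its difference of 0.71, or 1.64-fold, passed the size rule, but the NRF3 value lay just over the floor and the GFP value under it. On the NRF3 and GFP arrays, 57.1% and 67.6% of the control rows reached its values. Its level is therefore in the range of background.

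Atf3 (NCBI gene 11910, chromosome 1), a stress-inducible factor that represses many of its targets, had the lowest difference of the group. Its log2 value was 11.0 on the NRF3 array and 13.1 on the GFP array, where 3.50% and 1.09% of the control rows reached it. The difference of -2.14 is 4.41-fold lower in NRF3 cells and ranked 139 from the bottom among the 10162 detected genes. Atf3 was the 1 gene of the group with a 2-fold difference whose values both lay above the upper quartiles of the control rows. Other bZIP factors of the integrated stress response went different ways. Atf4, its central factor, had 16.4 on both arrays, a difference of 0.08. Ddit3, which encodes CHOP, had 13.0 on the NRF3 array and 13.8 on the GFP array, a difference of -0.89, and Atf5 was higher, by 1.65.

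Of the remaining pair of immediate-early genes, Ier2 was within the size rule and Egr1 could not be read. Egr1 (chromosome 18), a zinc finger factor induced through serum response factor, was not detected, with 4.54 on the NRF3 array and 4.0 on the GFP array. On these arrays 83.8% and 88.8% of the control rows reached its values, so no difference can be read. Ier2 (NCBI gene 15936, chromosome 8), a short-lived nuclear protein gene, had 8.75 on the NRF3 array and 8.26 on the GFP array. Its difference of 0.49, or 1.40-fold, was just inside the size rule.

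**Figure D2:**
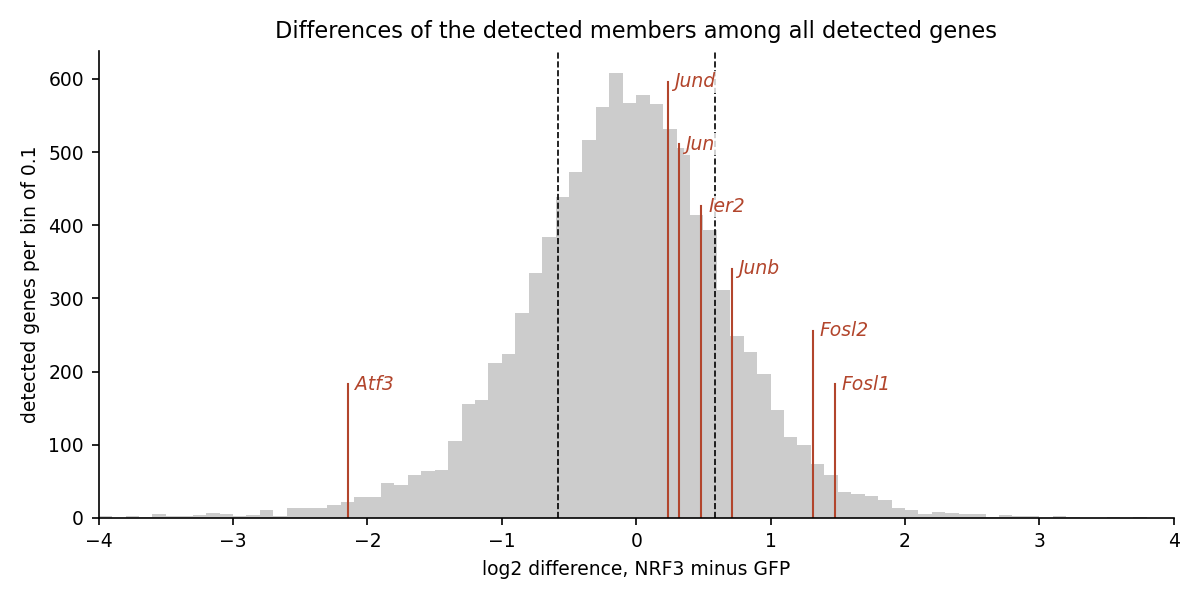
Number of detected genes (vertical axis, bins of 0.1) by log2 difference, NRF3 minus GFP (horizontal axis), with the 7 detected AP-1 and immediate-early genes as red lines whose heights carry no value; dashed lines mark 1.5-fold, and 25 genes lie outside the plotted range. Atf3 stands in the lower tail at -2.14, Fosl2 and Fosl1 in the upper tail at 1.31 and 1.48, and Jund, Jun and Ier2 within 1.5-fold, with Junb just past it at 0.71.

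Chromosome moved with several of these differences. The 549 detected genes of chromosome 8, which carries Junb, Ier2 and Jund, had a median difference of 0.56, and the 552 of chromosome 1, which carries Atf3, had -0.51. Junb and Ier2 lie near each other and shared 37 of their 50 nearest detected genes in RefSeq order. The 50 neighbours of Junb had a median of 0.63, 25 of them at least 1.5-fold higher and 1 at least 1.5-fold lower. Of them 27 lay below Junb and 23 above it, and its difference was 0.08 with their median subtracted. With the Junb signal in the range of background, its position among them cannot be read as that of its RNA. The neighbours of Ier2 had a median of 0.57, and Ier2 stood at -0.08 after its subtraction, the opposite sign. The neighbours of Jund had a median of -0.13, unlike chromosome 8 as a whole. Its difference was 0.36 after subtraction of that median but -0.33 after subtraction of the median of the whole chromosome.

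The differences of Atf3 and Fosl1 were farther out than those of every neighbour. The 50 detected genes nearest Atf3 had a median of -0.58, and all 50 lay above Atf3, which stood at -1.56 after subtraction, still past 2-fold. Those nearest Fosl1 had a median of -0.29, and all 50 lay below Fosl1, at 1.77 after subtraction. Both Fosl1 values lay under the upper quartiles of the control rows, and the part of background in its position was not tested. For Fosl2 the neighbour median was 0.14, with 48 of 50 below it, and for Jun -0.20, with 38 of 50 below it. With the neighbour median subtracted, 2 detected genes of the group were at least 1.5-fold higher and 1 was lower, against 18.0% and 19.4% of all detected genes treated alike.

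**Figure D3:**
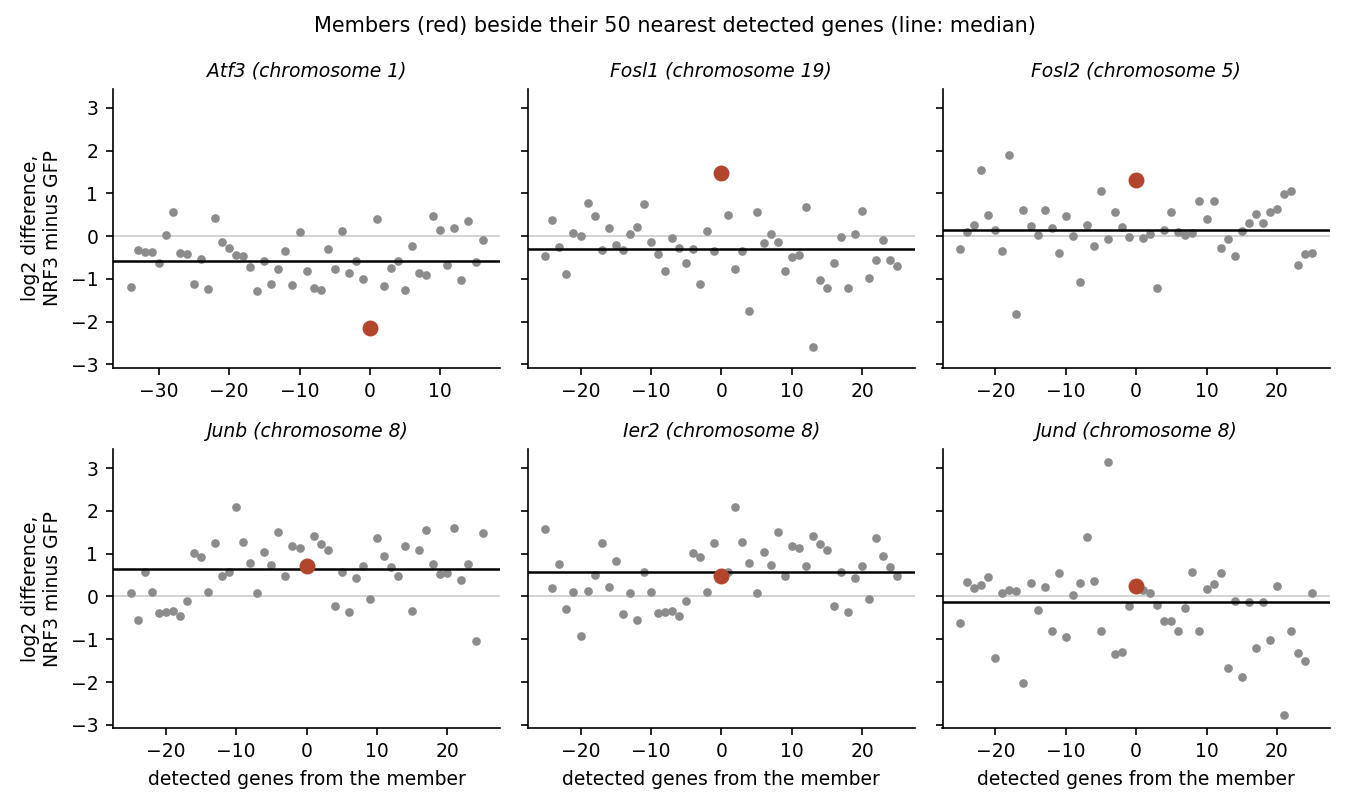
Log2 difference, NRF3 minus GFP (vertical axis), of 6 genes of the group (red) and their 50 nearest detected genes (grey), by position in gene order counted from the gene (horizontal axis), with the neighbour median as a black line. Atf3 lies below and Fosl1 above all of their neighbours, whereas Junb and Ier2 lie close to their medians of 0.63 and 0.57; the window of Atf3 is off-centre because it lies near the end of its chromosome.

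Over all detected genes, the values against which each list count stands were 17.0% higher and 23.6% lower at 1.5-fold, with a median of -0.07. Among factors that pair with AP-1 proteins or share the bZIP fold, Maf, Atf5 and Creb3 had the highest differences and Ddit3 the lowest. Of the 25 listed, 22 had a named probe set and 19 were detected, of which 7 were at least 1.5-fold higher and 1 lower, with a median of 0.22. Of those 7, Maf, Maff and Creb5 reached the floor on the NRF3 array only, with GFP values of 3.79, 5.10 and 5.25. The floor itself thus favours their call as higher, and the count cannot be read as an excess over 17.0%. Maf, which encodes a large MAF protein, had the highest difference, 2.77, with log2 values of 6.56 on the NRF3 array and 3.79 on the GFP array, the second under the floor. Like Junb it lies on chromosome 8. Atf5, of the ATF4 branch of the stress response, had 11.0 on the NRF3 array and 9.39 on the GFP array, a difference of 1.65. Creb3, a membrane-bound CREB relative, had 13.9 on the NRF3 array and 12.3 on the GFP array, a difference of 1.60. After Ddit3 the lowest were Nfe2l2, which encodes NRF2, at -0.46, and Jdp2, a repressive JUN partner, at -0.26.

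Other immediate-early genes went both ways. All 42 listed had a named probe set and 32 were detected, of which 5 were at least 1.5-fold higher and 11 lower, with a median of 0.01. With chromosome medians subtracted the counts were 8 higher and 9 lower, against 18.1% and 19.5% of all detected genes. The list median then turned to -0.02. Sik1, a salt-inducible kinase gene that CREB induces, had 7.15 on the NRF3 array and 11.7 on the GFP array, a difference of -4.57. Myc had 8.04 on the NRF3 array and 11.55 on the GFP array, a difference of -3.50. The helix-loop-helix repressor gene Id3 differed by -2.03, with an NRF3 value of 4.55 under the floor. On the other side, the nuclear receptor gene Nr4a3 had 12.35 on the NRF3 array and 9.86 on the GFP array, a difference of 2.49. Klf6, a zinc finger factor, differed by 1.23 and Plk2, a kinase of the polo family, by 1.19. Sik1 and Nr4a3, at the 2 ends of the list, are both known cAMP targets.

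Upstream, Map3k1 and Mrtfb had the highest differences of the MAP kinase cascade and serum response factor lists, and Map2k6 and Vcl the lowest. Of 21 detected MAP kinase cascade genes, among 34 listed, 1 was at least 1.5-fold higher and 5 were lower, with a median of -0.21. After median centring 2 were lower in place of 5, against 20.6% of all detected genes. Map3k1, a kinase upstream of the JUN kinases, had 9.30 on the NRF3 array and 7.74 on the GFP array, a difference of 1.56. The JUN kinase gene Mapk9 differed by 0.44 and Map2k1, which encodes MEK1, by 0.32. The lowest were the p38 activator gene Map2k6, at -1.17, the p38 gene Mapk14, at -0.80, and Mapk7, which encodes ERK5, at -0.65. Of 7 detected genes of serum response factor and its partners and targets, among 12 listed, 1 was higher, 2 were lower and the median was -0.24, or 0.15 with neighbour medians subtracted. Srf itself differed by -0.97 and its target Vcl, the vinculin gene, by -1.82, and the coactivator genes Mrtfb and Mrtfa differed by 1.21 and 0.32. The ternary complex factor genes Elk4 and Elk3 differed by -0.54 and -0.06.

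Inhibitors of the cascade were split. Of 14 detected MAP kinase phosphatase and feedback inhibitor genes, among 17 listed, 3 were at least 1.5-fold higher and 4 lower, with a median of -0.27. Dusp6, the ERK phosphatase gene that ERK signalling itself induces, had 7.01 on the NRF3 array and 9.61 on the GFP array, a difference of -2.60. Dusp14 differed by -1.45 and Dusp7 by -1.29, while Dusp8, Dusp16 and Dusp4 differed by 0.97, 0.75 and 0.73. Dusp4 lies on chromosome 8. Of 10 detected genes on a list of AP-1 and EGR repressors and turnover factors, among 13 listed, 3 were higher and 2 lower. The median was -0.09, or 0.13 with chromosome medians subtracted. This list also holds Usp28 and Tcf7l2, which are not claimed here to repress or degrade these factors. Fbxw7, a ubiquitin ligase subunit that targets JUN, differed by 1.04, the EGR corepressor gene Nab2 by 0.93 and Det1, of a ligase for JUN, by 0.81. Tcf7l2 differed by -1.20, the deacetylase gene Hdac3 by -0.86 and Men1, whose product menin binds JUND, by -0.56.

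Among reported AP-1 target genes, Lgals3 lay lowest and Tgfb1 highest. Of 48 listed from general knowledge, 43 had a named probe set and 21 were detected, of which 4 were at least 1.5-fold higher and 11 lower, with a median of -0.59. Lgals3, which encodes galectin-3, had 9.99 on the NRF3 array and 13.7 on the GFP array, a difference of -3.72. The pro-apoptotic gene Bcl2l11 differed by -1.97, with an NRF3 value of 4.78 under the floor, and Uhrf1, a DNA methylation cofactor of dividing cells, by -1.73. Tgfb1, the growth factor gene, had 12.4 on the NRF3 array and 9.84 on the GFP array, a difference of 2.55. The integrin gene Itga5 differed by 1.42 and Anxa1 by 0.77. Of the matrix metalloprotease genes in the list, picked after their values were seen, Mmp14 was detected, with 10.4 on the NRF3 array and 11.0 on the GFP array, a difference of -0.59. Mmp3, Mmp9, Mmp10 and Mmp13, the secreted proteases classically tied to AP-1, were not detected, at 3.23 to 4.90 on the NRF3 array and 2.76 to 4.79 on the GFP array. Without a floor the median over all 43 was -0.06.

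Several of these list genes had a value in the range of the control rows. The NRF3 values of Sik1, Dusp6, Map2k6, Srf and Nfe2l2 lay under the upper quartile of 7.85, and the GFP value of Det1 under that of 7.52. For Plk2, Fbxw7, Nab2, Dusp8, Maf, Id3, Bcl2l11, Mrtfa and Elk3 the values on both arrays lay under these quartiles. The GFP value of Nab2, at 5.61, lay under the floor as that of Maf did. The NRF3 values of Id3 and Bcl2l11 also lay under the floor. The part of background in the size of their differences was not tested.

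**Figure D4:**
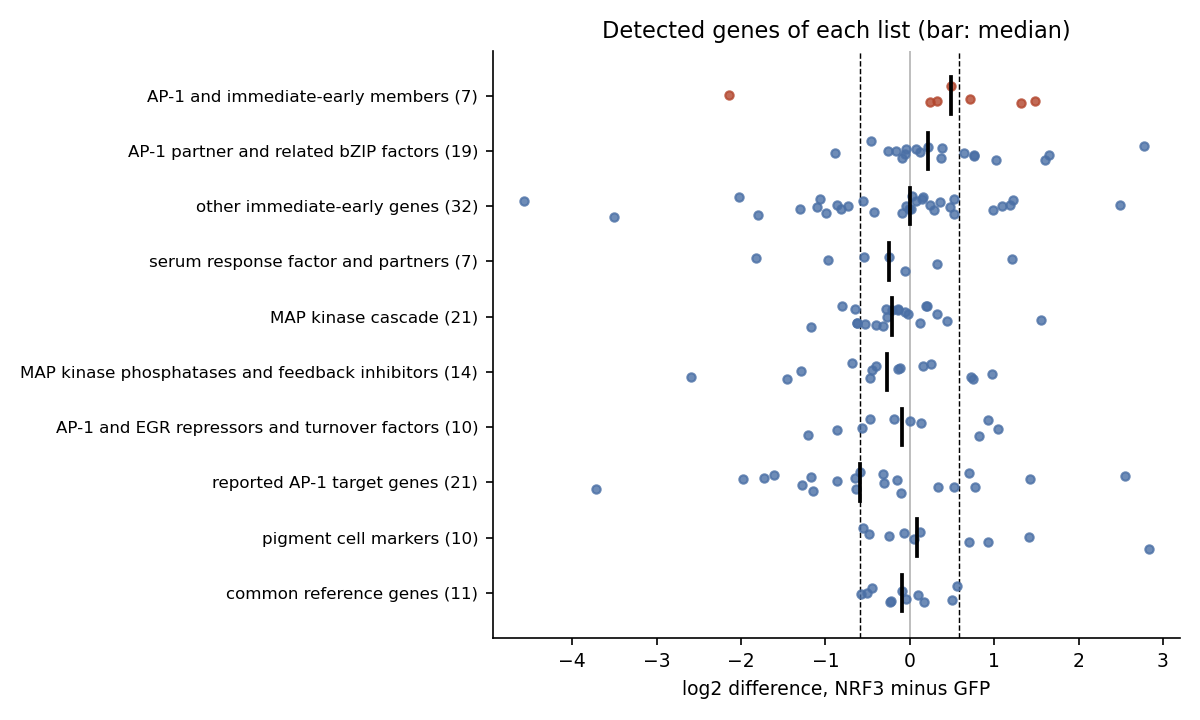
Log2 difference, NRF3 minus GFP (horizontal axis), of each detected gene (points) in 10 gene lists (rows, with the number detected), with list medians as black bars and 1.5-fold as dashed lines; vertical scatter within a row carries no value. The AP-1 and immediate-early genes (red) have a median of 0.49 with Atf3 far to the left, and the reported AP-1 targets one of -0.59, against -0.09 for common reference genes, none of which passed 1.5-fold.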

How the data were processed

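Total RNA of B16F10 cells was measured on 2 single-colour Affymetrix arrays, 1 per group. The authors deposited 1 log2 expression value per probe set and array, made with Affymetrix Expression Console and RMA, per the submitters' processing notes. No version of either is given in the sources used here, nor are background settings or a genome build. Array data have no read depth, and the number of arrays limits the precision. Of 28846 rows, 19572 carried 1 gene symbol in the supplied platform annotation. Where a gene had several probe sets (55 genes), the brightest by mean was kept. The median of all rows was 6.13 on the NRF3 array and 6.05 on the GFP array. Differences are NRF3 minus GFP, with no test and with the size rule of 1.5-fold. Members and lists (224 of 248 entries matched) were chosen with earlier results of these data known, so no list is independent evidence. The 3 highest and 3 lowest detected genes of each list of factors or targets were named, with all 10 members, Nfe2l3 and 5 pigment genes. Atf4 and the 5 Mmp genes lie outside this rule and were chosen after their values were seen. Chromosome and gene order came from RefSeq (GRCm38.p6). Alternatives were median centring, quantile normalization, a lowess trend (span 0.3), other floors, the mean over probe sets, and subtraction of chromosome or neighbour medians. Python 3.11.15, pandas 2.3.3 and statsmodels 0.14.6 were used. The size rule, neighbour subtraction, lowess trend and quantile normalization were tested on simulated data, and the other steps were not. The simulated noise was far smaller than the planted differences. The simulation therefore checked the code, not how often the size rule errs in these data. Protein sequences were not used here.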

Additional observations from a re-analysis of the deposited data

How the results depend on the processing

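No paired analysis was possible because each group had 1 array. Raising the floor to 9.51, the 75th percentile, which leaves Jun, Jund and Atf3 as the detected genes, gave 0 genes at least 1.5-fold higher in place of 3 and a median difference of 0.24. Fosl1, Fosl2 and Junb dropped out under that floor. The share of all genes detected at that floor that were higher was not counted, so this 0 cannot be set against one. Over the other alternatives run, 2 to 4 genes were higher and 1 was lower, and the median ranged from 0.15 with chromosome medians subtracted to 0.66 after quantile normalization. Under quantile normalization and the lowess trend the fourth gene was Ier2. There 20.9% and 19.3% of all detected genes were higher, against 17.0% as deposited. With chromosome medians subtracted, where 2 genes of the group were higher, the share of all detected genes was 18.1%. The shares lower were 19.9%, 20.9% and 19.5% under these 3 settings, against 23.6% as deposited. Over the rescalings and subtractions Atf3 ranged from -2.14 to -1.56, Fosl1 from 1.48 to 1.77 and Fosl2 from 1.17 to 1.44, all past 2-fold. Junb ranged from 0.08 to 0.79. Jund, from -0.33 to 0.36, and Ier2, from -0.08 to 0.66, changed sign. As deposited, 41.9% of the calls at 1.5-fold over all detected genes were toward higher values, against 51.3% after quantile normalization. At 2-fold the counts were 686 higher and 1122 lower as deposited, and 876 and 910 after quantile normalization. For the other lists, 25 of 216 medians and counts moved past the limits used (0.585 for a median, 1.5 times for a count), all of them counts. The medians of 3 of 9 lists changed sign under some alternative, that of other immediate-early genes reaching -0.45 with the raised floor, against 0.01. MAP kinase cascade genes lower numbered 1 to 3 of 21 under the rescalings and subtractions, where 19.4% to 20.9% of all detected genes were lower. As deposited they numbered 5, against 23.6% of all detected genes. AP-1 target genes higher numbered 10 of 43 without a floor, in place of 4 of 21. The share of all genes without a floor was not counted. With 1 array per group, the spread between cultures was not measured.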
